A study of Mus musculus with 6 samples.

Results

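Kruppel-like factors (KLFs) are transcription factors that share zinc fingers at their C-terminal end and bind GC boxes and CACCC boxes in DNA. They differ in the part of the protein in front of the fingers, through which some recruit coactivators and others corepressors. Several are induced quickly by growth factors, shear stress, cytokines or steroids, and in kidney epithelia they have been studied in injury, inflammation and the steroid response. The genes described here are 10 KLF genes other than Klf9: Klf2, Klf3, Klf4, Klf5, Klf6, Klf10, Klf11, Klf13, Klf15 and Klf16. They are 10 of 24928 mouse genes to which the deposited counts could be assigned. A transcript identifier was given to a gene if at least 50% of its exonic bases lay in exons of that gene on the same strand in build mm10, and all identifiers of a gene were summed.

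Total RNA was taken from collecting duct cells, the last segment of the kidney tubule, of male mice of the inbred strain C57BL/6J. Before cell isolation the mice ate for 5 days a chow of 0.01 to 0.02% sodium (low-NaCl, 3 libraries) or one of 2.4% sodium (high-NaCl, 3 libraries), and no other agent, allele or age is named in the labels. The comparison asks how collecting duct transcripts respond when sodium intake, and with it the adrenal hormone aldosterone, differs. The labels give neither the isolation method nor the animals behind each library, so the p-values cover library-to-library spread alone, and that may be technical.

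Libraries held 40334731 to 41701319 counted reads on the low-NaCl diet and 40101899 to 46861531 on the high-NaCl diet, and mitochondrial reads made up 20.5 to 21.8% and 21.9 to 29.9% of them. Library 1 of each diet ran in lane 1 of the sequencer, low-NaCl libraries 2 and 3 in lane 2 and high-NaCl libraries 2 and 3 in lane 3. Principal cell markers, 10 genes among them the water channel Aqp2, summed to 4786 to 6579 CPM on the low-NaCl and 9989 to 12497 CPM on the high-NaCl diet. The 10 intercalated cell markers summed to 2858 to 5417 CPM on the low-NaCl and 1871 to 2181 CPM on the high-NaCl diet, so markers of both main collecting duct cell types were present. In bulk RNA, fewer cells of a type and less RNA per cell cannot be told apart. Markers of other kidney cells were present too: podocyte markers summed to 39.3 to 65.5 CPM in low-NaCl and 46.3 to 62.2 CPM in high-NaCl libraries, and proximal tubule markers to 1724 to 3451 CPM in low-NaCl and 958 to 2183 CPM in high-NaCl libraries. Immune markers were near 0, at 0.273 to 0.330 CPM in low-NaCl and 0.372 to 0.727 CPM in high-NaCl libraries. CPM are counts per 1000000 reads, scaled between libraries.

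No member passed the test between diets. Of the 9 members tested, 0 were called higher and 0 lower on the low-NaCl diet by edgeR's quasi-likelihood test at a Benjamini-Hochberg adjusted p under 0.05, while of the 10564 tested genes 1.72% were called higher and 1.74% lower, 3.46% in all. At an unadjusted p under 0.05 there were 2 members, Klf2 and Klf11, both lower on the low-NaCl diet. That is 22.2% of the tested members, near the 18.3% of all tested genes below that value. By DESeq2 both fell, and by limma-voom neither passed. With a replicate block, a term for library number added to the edgeR fit, both fell. Over all tested genes DESeq2 called 409 higher and 448 lower, and the block 465 higher and 447 lower. The median log2 fold change, low-NaCl over high-NaCl, was -0.16 over the 9 tested members and -0.00 over all tested genes, and 7 of the 9 lay below 0 (77.8%, against 50.2% of all tested genes). Summed over the 10 members, levels were 120 ± 4.34 CPM on the low-NaCl and 153 ± 15.0 CPM on the high-NaCl diet (SD, n = 3 each), a sum that the abundant members dominate.

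**Figure D1:**
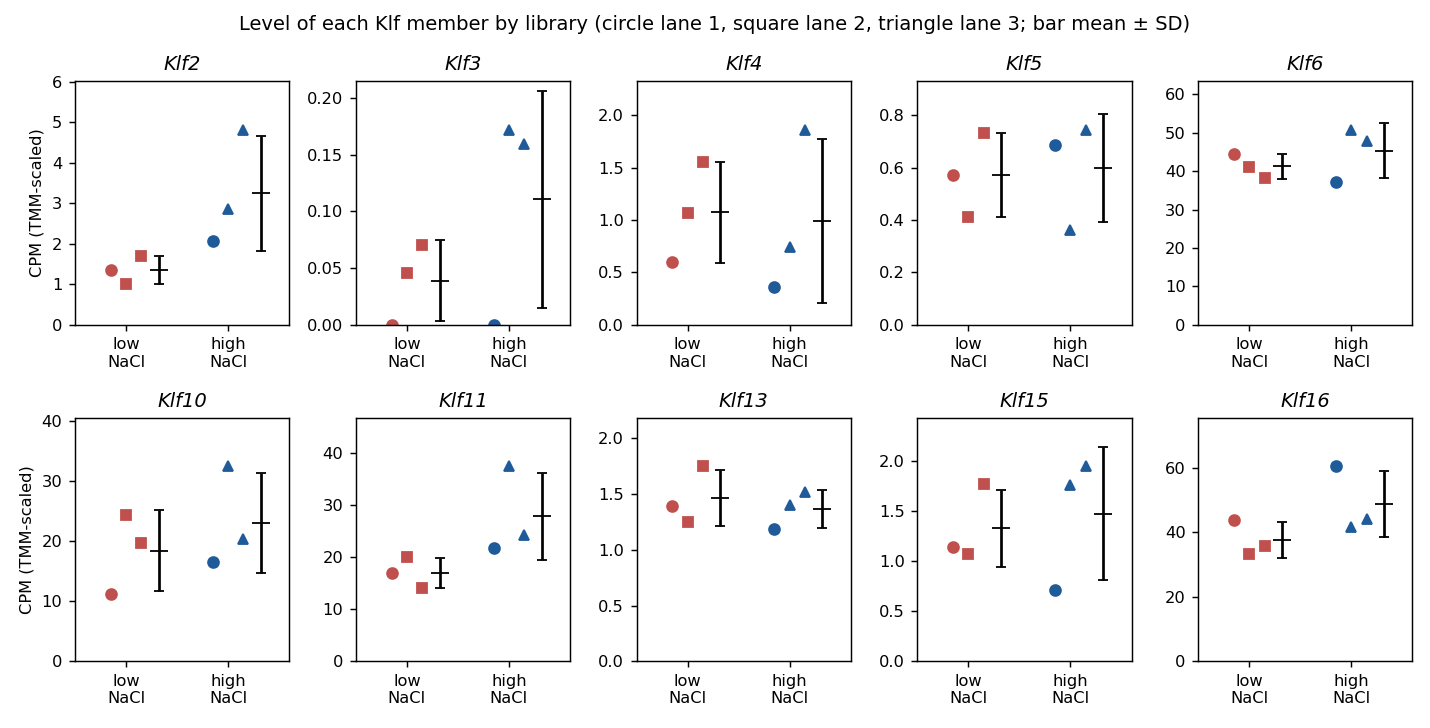
Level of each of the 10 members in CPM (vertical axis, from 0, a different scale in each panel) in the 3 low-NaCl libraries (red, left) and 3 high-NaCl libraries (blue, right); symbols give the sequencing lane and the bar the mean ± SD. The libraries of the diets lie apart for Klf2 and Klf11 and overlap for the other 8 members. Of all tested genes, 23.9% lay apart in either direction.

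Promoters are shown for 3 members: Klf2 and Klf11, which had the smallest p-values, and Klf6, an abundant member whose diets overlapped. Each runs 5′ to 3′ from 250 bases before to 50 after the RefSeq gene start in build GRCm38.p6, and capitals mark matches on either strand to TGACG (the core of the cAMP response element), AGAACA (part of a glucocorticoid response element), CACCC or GGGCGG (boxes that KLF and SP proteins bind), or the SRF box.
Klf2, chr8:72318812-72319111, plus strand: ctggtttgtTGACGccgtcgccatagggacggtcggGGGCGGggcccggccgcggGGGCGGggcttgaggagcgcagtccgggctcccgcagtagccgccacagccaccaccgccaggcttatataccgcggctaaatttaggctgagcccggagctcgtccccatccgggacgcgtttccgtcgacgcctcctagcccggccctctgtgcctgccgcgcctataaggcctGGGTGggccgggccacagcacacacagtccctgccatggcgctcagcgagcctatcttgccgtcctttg
Klf11, chr12:24651121-24651420, plus strand: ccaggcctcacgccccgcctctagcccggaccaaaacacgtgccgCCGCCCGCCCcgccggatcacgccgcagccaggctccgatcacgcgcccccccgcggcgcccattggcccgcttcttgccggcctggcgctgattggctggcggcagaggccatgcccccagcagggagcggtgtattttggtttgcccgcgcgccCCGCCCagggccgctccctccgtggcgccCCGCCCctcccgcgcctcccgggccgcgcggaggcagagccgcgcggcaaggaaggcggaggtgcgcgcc
Klf6, chr13:5861239-5861538, plus strand: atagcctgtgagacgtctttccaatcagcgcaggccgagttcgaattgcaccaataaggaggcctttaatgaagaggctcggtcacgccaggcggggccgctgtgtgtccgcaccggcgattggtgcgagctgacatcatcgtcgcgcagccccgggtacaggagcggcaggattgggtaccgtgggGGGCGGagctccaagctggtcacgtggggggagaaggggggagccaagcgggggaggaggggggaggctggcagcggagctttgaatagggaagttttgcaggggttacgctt
The Klf2 window held 2 GGGCGG matches, 1 CACCC match and 1 TGACG match, the Klf11 window 4 GGGCGG matches of which 2 overlap each other, and the Klf6 window 1 GGGCGG match. GGGCGG was found in all 7 members with a promoter in the table (Klf2, Klf3, Klf4, Klf6, Klf11, Klf13 and Klf15) and in 35.7% of 32851 promoters. TGACG was found in 5 of the 7, all but Klf6 and Klf11, and in 20.8% of promoters. CACCC was found in 4 of the 7, namely Klf2, Klf3, Klf13 and Klf15, and in 57.5% of promoters. AGAACA and the SRF box were found in 0 of the 7, against 19.0% and 1.63% of promoters. The windows of the 7 members were 63.0 to 77.7% G and C, against a median of 52.7% over all promoters. Entries for Klf5, Klf10 and Klf16 were not used here.

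How well a member could be measured depended on its annotation. The authors' counting left out a read that overlapped more than 1 transcript identifier, so exons shared by isoforms gave no count. All exonic bases were countable in 6 members, Klf2, Klf4, Klf6, Klf10, Klf11 and Klf16, each with 1 identifier. The share was 59.04% for Klf5, 20.5% for Klf3, 17.4% for Klf13 and 6.68% for Klf15. Runs of 50 bases shared with transcripts of another gene made up 0 to 0.263% of the members' transcripts apart from Klf3, at 3.48%. Opposite-strand exons of another gene of GENCODE lay over 5.22% of the Klf3 bases (Gm20033) and over none of the other members.

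**Figure D2:**
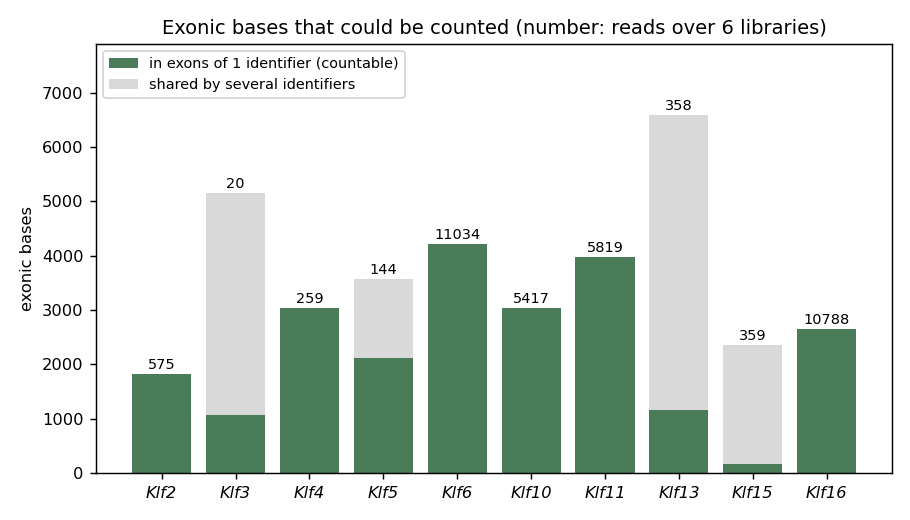
Exonic bases of each member (vertical axis) that lay in exons of 1 identifier (green) or were shared by several (grey), with the reads counted over the 6 libraries above each bar. Klf6 had 11034 reads on fully countable exons, Klf15 had 359 reads on 157 countable bases and Klf3 had 20 reads.

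Levels between genes are compared per kb of countable exon and within the 6 fully countable members. Klf16, first described as a regulator of dopamine receptor genes, stood at 12.6 to 22.8 CPM per kb over the 6 libraries and lay above the next, Klf6, in each library. Klf6, an early injury-response factor, stood at 8.83 to 12.0 CPM per kb. Klf10 (3.66 to 10.6 CPM per kb) and Klf11 (3.54 to 9.39 CPM per kb), the pair known as TGF-beta-inducible early genes, overlapped each other, and Klf10 was the higher in 4 of 6 libraries. Klf2 (0.552 to 2.65 CPM per kb) and Klf4 (0.117 to 0.612 CPM per kb) were the lowest, with Klf2 above Klf4 in 6 of 6 libraries. The ranges of Klf16 and Klf6 were apart, as were those of Klf11 and Klf2, while the ranges of each other neighbouring pair overlapped.

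**Figure D3:**
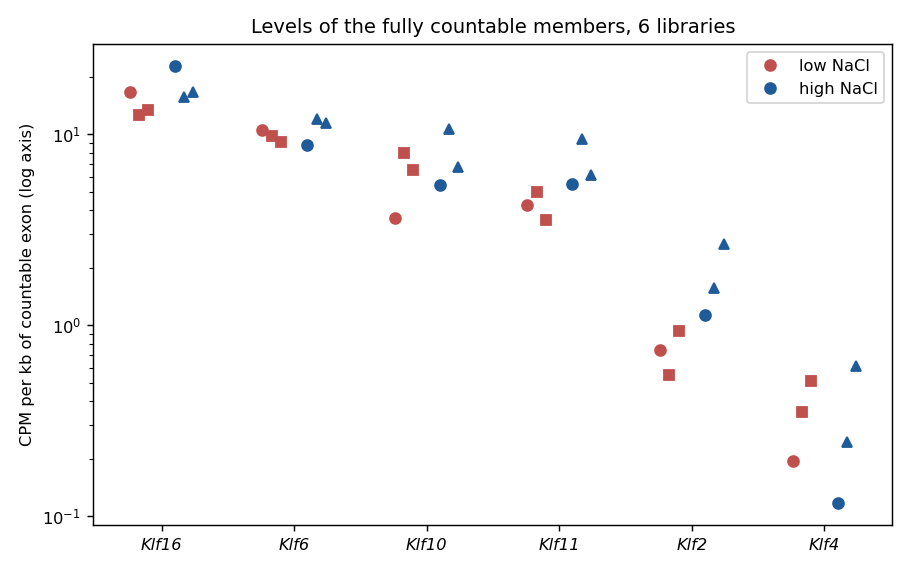
Level per kb of countable exon (vertical log axis, CPM per kb) of the 6 fully countable members in 3 low-NaCl (red, left) and 3 high-NaCl libraries (blue, right); circles, squares and triangles mark lanes 1, 2 and 3. Klf16 was between 12.6 and 22.8 and Klf4 between 0.117 and 0.612 CPM per kb.

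Klf2, a flow-induced factor of endothelial cells and a regulator of leukocyte quiescence, had the smallest p-value of the members. Its gene spans, in mm10, chromosome 8, 72319033 to 72321656. Low-NaCl libraries 1, 2 and 3 held 54, 44 and 72 reads of Klf2, or 1.34, 1.002 and 1.70 CPM, and high-NaCl libraries 1, 2 and 3 held 75, 149 and 181 reads, or 2.06, 2.85 and 4.82 CPM. Each low-NaCl library lay below each high-NaCl library, with high-NaCl library 3 the highest. Separation in that direction was seen in 2 of the 9 tested members (Klf2 and Klf11) and in 11.6% of all tested genes. In either direction it was seen in the same 2 members and in 23.9% of all tested genes. The means were 1.35 ± 0.348 CPM on the low-NaCl and 3.24 ± 1.42 CPM on the high-NaCl diet (SD, n = 3 each). The log2 fold change was -1.27 ± 0.35 (SE; 95% interval -2.04 to -0.49; edgeR adjusted p = 0.0815). The test was passed with no filter on low counts (adjusted p = 0.0274), by DESeq2 (adjusted p = 0.0107) and with the replicate block (edgeR adjusted p = 0.0240). A lane term gave -0.62 (adjusted p = 0.687). Lanes 2 and 3 each hold 1 diet, so with a lane term the diet difference rests on 1 library per diet, those of lane 1, here and below. Within lane 1 the log2 difference was -0.62, and between the other libraries, where lane and diet cannot be told apart, it was -1.51.

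Because Klf2 is abundant in endothelium, its level was set beside markers of endothelial cells. The 10 endothelial markers summed to 18.9 to 24.2 CPM in low-NaCl libraries and 19.9 to 29.5 CPM in high-NaCl libraries, most of it Ehd3 (20.7 ± 1.998 CPM in low-NaCl and 21.3 ± 4.80 CPM in high-NaCl libraries, SD, n = 3 each), and 0 of 5 tested ones passed by edgeR, 1 at an unadjusted p under 0.05. DESeq2 called 1 lower, Plvap, and limma-voom 0. Plvap, a protein of fenestrated endothelium that was fully countable, measured 1.12, 0.546 and 0.377 CPM on the low-NaCl and 1.65, 1.74 and 1.81 CPM on the high-NaCl diet, groups that did not overlap (log2 fold change -1.35 ± 0.39, SE; edgeR adjusted p = 0.0954). Like Klf2, Plvap passed with no filter (edgeR adjusted p = 0.0480) and by DESeq2 (adjusted p = 0.0224). It also passed with the replicate block (edgeR adjusted p = 0.0459) and without low-NaCl library 1 (edgeR adjusted p = 0.0185). Without any other single library it did not pass (edgeR adjusted p = 0.108 to 0.314). With a lane term its log2 fold change was -0.56. Cdh5, the cadherin of endothelial junctions, measured 0.621, 0.387 and 0 CPM on the low-NaCl and 1.05, 0.746 and 1.2505 CPM on the high-NaCl diet (edgeR adjusted p = 0.318). Kdr overlapped, at 0.0497, 0.751 and 0.0236 CPM on the low-NaCl and 0.688, 0.669 and 0.106 CPM on the high-NaCl diet. Flt1 had the higher mean on the low-NaCl diet (0.275 against 0.221 CPM), with low-NaCl library 1 the highest at 0.571 CPM. The log2 fold change lay below 0 in 4 of the 5 tested markers. Pecam1, Tek and Emcn held 0 reads, of which Pecam1 and Tek had no countable base. The part of such cells in the Klf2 difference was not tested.

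Immediate early genes, with which Klf2, Klf4, Klf6 and Klf10 are often induced during tissue dissociation, differed between the diets. Their 16 genes summed to 1413 to 1620 CPM in low-NaCl and 2486 to 3027 CPM in high-NaCl libraries, 3 of them at 0 reads. By edgeR 8 of 12 tested ones fell and 1 rose. The count that fell was 5 without high-NaCl library 3 or when scaled by total counts. With a lane term it was 1. Their median log2 fold change was -1.77, against -1.27 for Klf2, 0.13 for Klf4, -0.14 for Klf6 and -0.33 for Klf10. Their part in the Klf2 and Klf11 values was not tested.

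Klf11, a repressor that recruits the Sin3a corepressor and responds to TGF-beta, had the second smallest p-value. Its gene spans chromosome 12, 24651274 to 24662789. Klf11 measured 16.97, 19.9 and 14.1 CPM in low-NaCl libraries 1, 2 and 3 and 21.8, 37.4 and 24.3 CPM in high-NaCl libraries 1, 2 and 3. The groups did not overlap, and high-NaCl library 2 stood well above the rest. The means were 17.004 ± 2.92 CPM on the low-NaCl and 27.8 ± 8.38 CPM on the high-NaCl diet (SD, n = 3 each), a log2 fold change of -0.71 ± 0.22 (SE; 95% interval -1.21 to -0.22; edgeR adjusted p = 0.120). DESeq2 (adjusted p = 0.0379) and edgeR with the replicate block (adjusted p = 0.0193) called Klf11 lower. Without high-NaCl library 2 the log2 fold change was -0.44 (adjusted p = 0.162), within lane 1 the difference was -0.36, and between lanes 2 and 3 it was -0.85.

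Klf10, the closest relative of Klf11 among the members and also a TGF-beta-induced repressor, varied more within each diet. It measured 11.1, 24.4 and 19.8 CPM in low-NaCl libraries 1, 2 and 3 and 16.4, 32.4 and 20.4 CPM in high-NaCl libraries 1, 2 and 3. Library 1, from lane 1, was the lowest of its diet in both, and library 2 the highest in both. The coefficient of variation was 36.5% in low-NaCl libraries and 36.0% in high-NaCl libraries, against 7.74% and 15.8% for Klf6. The log2 fold change was -0.33 ± 0.31 (SE; 95% interval -1.02 to 0.36; edgeR adjusted p = 0.628).

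Klf6 and Klf16 were the members with the most reads. Klf6 measured 44.6, 41.1 and 38.2 CPM on the low-NaCl and 37.2, 50.8 and 48.0 CPM on the high-NaCl diet. The groups overlapped, the log2 fold change was -0.14 ± 0.15 (SE; edgeR adjusted p = 0.689), and its 95% interval ran from -0.47 to 0.20. A change of Klf6 by a factor of 2 therefore lay outside that interval. Klf16 measured 43.9, 33.4 and 35.7 CPM on the low-NaCl and 60.4, 41.7 and 44.3 CPM on the high-NaCl diet, where low-NaCl library 1 lay within the high-NaCl range. Library 1, from lane 1, was the highest of its diet in both. The log2 fold change was -0.37 ± 0.18 (SE; 95% interval -0.77 to 0.02; edgeR adjusted p = 0.298).

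Klf4, a factor of epithelial differentiation that is also used in reprogramming, was low. It had 24, 47 and 66 reads in low-NaCl libraries 1, 2 and 3 and 13, 39 and 70 reads in high-NaCl libraries 1, 2 and 3, or 0.596, 1.07 and 1.56 CPM and 0.358, 0.746 and 1.86 CPM. The low-NaCl libraries lay within the range of the high-NaCl libraries, and the log2 fold change was 0.13 ± 0.56 (SE; 95% interval -1.12 to 1.37; edgeR adjusted p = 0.930), so neither a 2-fold rise nor a 2-fold fall was outside the interval. The coefficient of variation was 44.7% in low-NaCl libraries and 79.0% in high-NaCl libraries. As with Klf10, library 1 was the lowest of its diet in both. That held for 2 of 9 tested members, and for 21.7% of all tested genes.

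Klf5, which promotes epithelial proliferation and acts in the collecting duct in mouse models of inflammation, was read from 1 exon. All 144 reads fell in identifier uc007uvg.1, whose own 259 bases are its last exon in the deposited annotation (chromosome 14, 99313151 to 99313409), while uc007uvf.1, which ends earlier in a longer exon, had 0 reads in its own 1854 bases. Klf5 measured 0.571, 0.410 and 0.731 CPM on the low-NaCl and 0.688, 0.363 and 0.745 CPM on the high-NaCl diet. These overlapped, with a log2 fold change of -0.05 ± 0.42 (SE; 95% interval -0.99 to 0.88; edgeR adjusted p = 0.959), and its sign turned with other scaling.

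Klf13, a factor known from T cells, and Klf15, which drives amino acid breakdown and responds to glucocorticoids, were read from their first exons. Of the 358 Klf13 reads, 315 fell in the first exon of uc009hfn.2 (949 own bases) and 43 in the other first exon, of uc009hfm.2 (201 own bases). Klf13 measured 1.39, 1.252 and 1.74 CPM on the low-NaCl and 1.18, 1.40 and 1.52 CPM on the high-NaCl diet, which overlapped (log2 fold change 0.10 ± 0.27, SE; edgeR adjusted p = 0.880). Of the 359 Klf15 reads, 351 fell in the 100-base first exon of uc009cxj.1 (chromosome 6, 90462626 to 90462725). Klf15 measured 1.14, 1.07 and 1.77 CPM on the low-NaCl and 0.715, 1.76 and 1.94 CPM on the high-NaCl diet, with high-NaCl library 1 the lowest of all (log2 fold change -0.16 ± 0.39, SE; edgeR adjusted p = 0.871). These values follow transcripts that start at the counted exon and say nothing of other starts.

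Klf3, a repressor that binds the CtBP corepressors, had too few reads to test. Low-NaCl libraries 1, 2 and 3 held 0, 2 and 3 reads and high-NaCl libraries 1, 2 and 3 held 0, 9 and 6 reads. Of these 20 reads, 15 came from 165 bases of the first exon of uc008xmt.1 and 5 from a 79-base exon of uc012dwl.1. Its 5 identifiers share most exons, so the level of Klf3 could not be read from these counts.

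**Figure D4:**
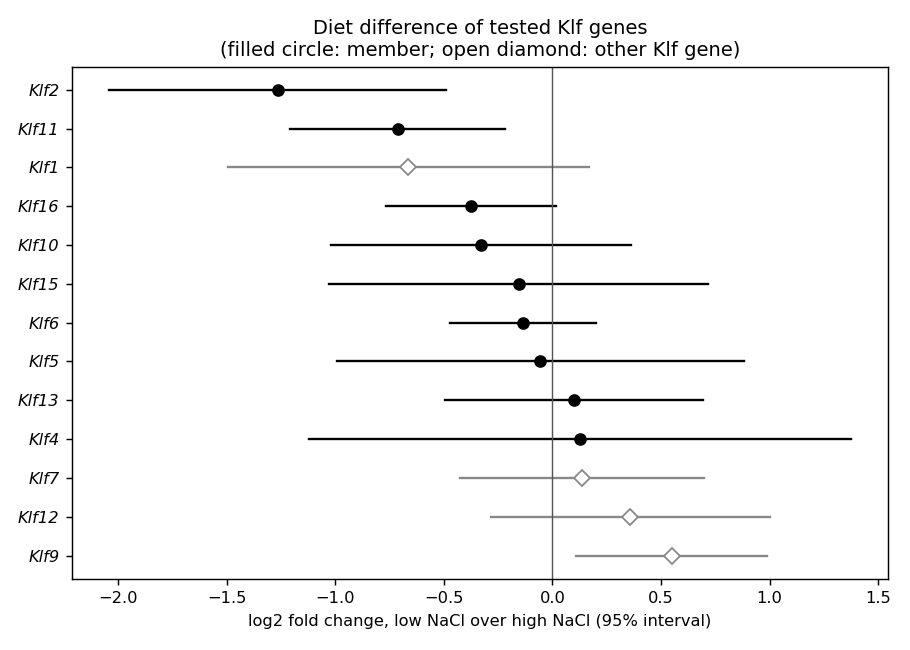
Log2 fold change, low-NaCl over high-NaCl (horizontal axis), with its 95% interval for the 9 tested members (filled circles) and 4 other KLF genes (open diamonds), ordered by value. Among members the intervals of Klf2 (-2.04 to -0.49) and Klf11 (-1.21 to -0.22) lie below 0 and those of the other 7 cross it. None passed the adjusted threshold in this edgeR fit, while DESeq2 and edgeR with a replicate block called Klf2 and Klf11 lower.

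Of the 7 other KLF genes, 4 could be tested and 0 passed by edgeR, 1 at an unadjusted p under 0.05. That was Klf9, a steroid-responsive factor, at 42.9, 39.1 and 39.1 CPM on the low-NaCl and 29.1, 19.3 and 34.4 CPM on the high-NaCl diet. Its log2 fold change of 0.55 ± 0.20 (SE; edgeR adjusted p = 0.172) had the opposite sign to those of Klf2 and Klf11, a difference between genes that was not tested. With high-NaCl library 2 as the sole high-NaCl library, the others having over 25% mitochondrial reads, the log2 fold change of Klf9 was 1.05. That library was the lowest for Klf9, and without it the log2 fold change was 0.34 (edgeR adjusted p = 0.161). Klf12, a repressor, measured 5.81 ± 0.481 CPM on the low-NaCl and 4.54 ± 2.02 CPM on the high-NaCl diet (SD, n = 3 each; edgeR adjusted p = 0.557), and Klf7 2.59 ± 0.631 CPM on low-NaCl and 2.36 ± 0.223 CPM on high-NaCl (SD, n = 3 each; edgeR adjusted p = 0.819). Klf1, the erythroid factor, measured 1.29 ± 0.617 CPM on the low-NaCl and 2.04 ± 0.577 CPM on the high-NaCl diet (SD, n = 3 each; edgeR adjusted p = 0.389). Klf14 and Klf17 were fully countable and had 0 reads, which in a single library allows up to 0.0574 to 0.0825 CPM (3 reads, counting error only).

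Genes that act with KLFs were described as lists, by their counts and median log2 fold change beside -0.00 for all tested genes. Of the corepressors and coactivators, 9 of 10 were tested and 0 passed (median 0.05, with 1 at an unadjusted p under 0.05 by edgeR). That was Ctbp2, a partner of Klf3, at 2.01 ± 0.319 CPM on the low-NaCl and 1.26 ± 0.156 CPM on the high-NaCl diet (SD, n = 3 each; edgeR adjusted p = 0.202). Of 8 ubiquitin ligases that act on KLF proteins, 6 were tested and 0 passed by edgeR (median 0.03, 0 at an unadjusted p under 0.05). Of the 7 genes of the MEK5-ERK5-MEF2 pathway, which induces Klf2 and Klf4, 3 were tested, 1 rose and 0 fell (median 0.18). The genes of MEK5 and ERK5 themselves, with 48 and 36 reads over the 6 libraries, were untested, so the median does not cover them. The one that rose was the kinase Map3k3, at 164 ± 23.9 CPM on the low-NaCl and 93.9 ± 4.398 CPM on the high-NaCl diet (SD, n = 3 each; log2 fold change 0.80 ± 0.14, SE; edgeR adjusted p = 0.0222). The log2 fold change stayed at 0.71 to 0.91 when each library was left out, but the adjusted p was over 0.05 without low-NaCl library 2 (0.71, adjusted p = 0.0951), high-NaCl library 1 (0.80, adjusted p = 0.0556) or high-NaCl library 3 (0.84, adjusted p = 0.0881), and with a lane term (0.84, adjusted p = 0.306). With high-NaCl library 2 as the sole high-NaCl library it was 0.86 (adjusted p = 0.118).

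Of 12 genes of the TGF-beta pathway, which induces Klf10 and Klf11, 6 were tested and 0 passed by edgeR (median 0.28, with 2 at an unadjusted p under 0.05). Among them was Tgfb1, the ligand (9.88 ± 0.911 CPM on the low-NaCl and 6.57 ± 2.01 CPM on the high-NaCl diet, SD, n = 3 each; edgeR adjusted p = 0.204). Of 12 genes listed as glucocorticoid receptor targets, 8 were tested, 3 rose (Lcn2, Tsc22d3 and Sgk1) and 0 fell, with a median of 0.83. The list includes Klf9 and, among the untested genes, that of the receptor itself. Whether these values follow glucocorticoids or aldosterone was not tested. By limma-voom or with no filter on low counts, 2 rose. Among genes with at least 50% of their bases countable, 4 were tested and 1 rose. The count that rose was 1 without low-NaCl library 2 or 3, without high-NaCl library 1 or 3, with high-NaCl library 2 as the sole high-NaCl library or scaled by total counts. With a lane term it was 0. Amino acid catabolism genes regulated by Klf15 gave 5 tested and 0 passed by edgeR (median -0.14, 0 at an unadjusted p under 0.05). Endothelial targets of Klf2 and Klf4 gave 7 tested and 0 passed by edgeR (median -0.16, 1 at an unadjusted p under 0.05, Ccl2), and 2 were called higher without low-NaCl library 1. That list was not split into genes that these factors induce and genes that they repress, so its median has no expected sign. Of the 9 SP genes, the nearest relatives of the KLFs, 2 were tested and 0 passed by edgeR, 1 of them, Sp5, at an unadjusted p under 0.05 (0.592 ± 0.0450 CPM on the low-NaCl and 0.223 ± 0.0941 CPM on the high-NaCl diet, SD, n = 3 each; edgeR adjusted p = 0.120).

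The genes whose pattern over the 6 libraries was most like that of Klf2 were found by the root mean square difference of log2(CPM + 0.5), centred on each gene's mean. The search covered 6925 genes for which the log2 of the mean CPM was at least 1. The nearest were Chtf18 (0.183), Tnfsf15 (0.191) and Asf1b (0.206). Chtf18 measured 1.02, 1.002 and 1.56 CPM in low-NaCl libraries 1, 2 and 3 and 2.31, 3.17 and 3.72 CPM in high-NaCl libraries 1, 2 and 3. Asf1b measured 1.62, 1.62 and 1.77 CPM in low-NaCl and 3.30, 3.61 and 4.92 CPM in high-NaCl libraries. Tnfsf15 measured 2.78, 1.41 and 2.52 CPM in low-NaCl and 3.99, 4.02 and 6.78 CPM in high-NaCl libraries. As in Klf2, each low-NaCl library lay below each high-NaCl library in Chtf18, Tnfsf15 and Asf1b. These genes were chosen for that likeness, and their order is a description.

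**Figure D5:**
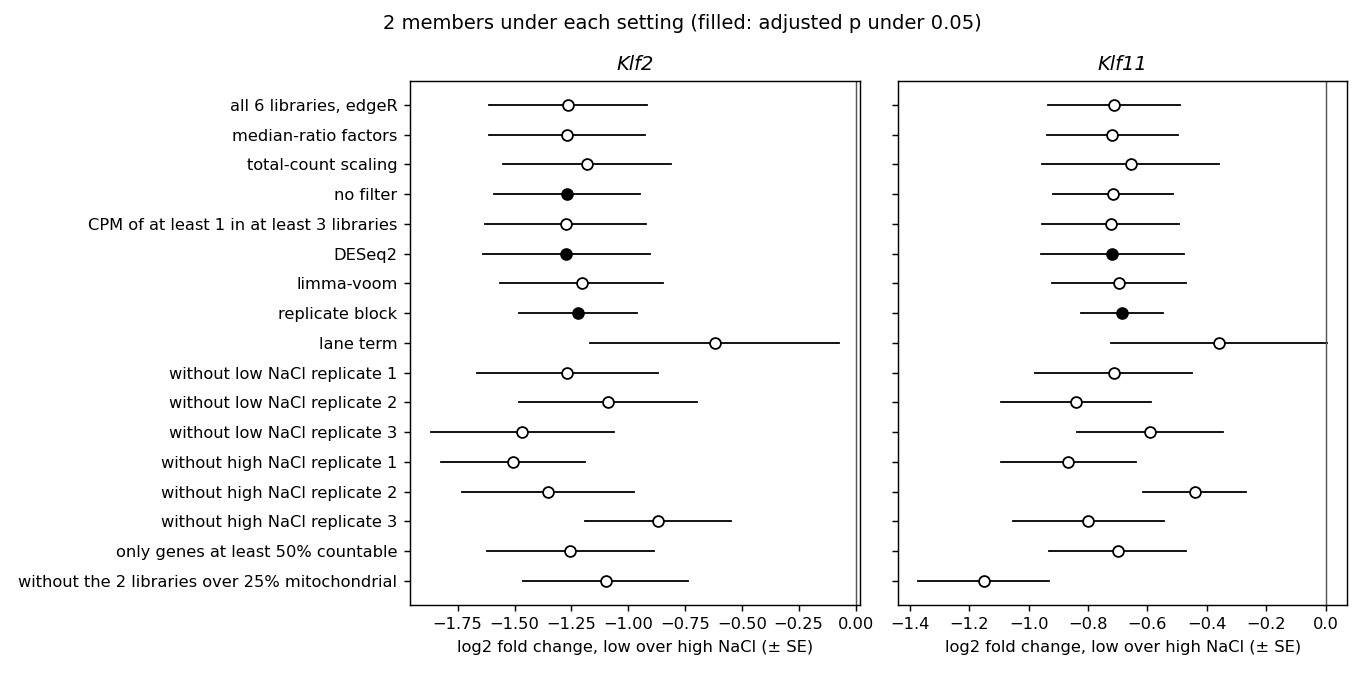
Log2 fold change, low-NaCl over high-NaCl (horizontal axis), ± SE of Klf2 and Klf11 with all 6 libraries and under each other setting (rows); filled points have an adjusted p under 0.05. All points lie below 0, between -1.51 and -0.62 for Klf2 and between -1.15 and -0.36 for Klf11; 3 points of Klf2 and 2 of Klf11 are filled.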

How the data were processed

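The members and gene lists were chosen with earlier results of these data known. Raw read counts were deposited by the authors, 1 file per library. Per the file headers, featureCounts 1.5.0-p3 counted reads over exons of a UCSC annotation of mm10, with no strand, overlap or multi-mapping option, so by its defaults strand was ignored and reads over more than 1 identifier were dropped. FastQC, Subread and edgeR are also listed, per the submitters' processing notes, and no aligner is given in the sources used here.

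The 59121 identifiers are transcripts. Of these, 41510 (72.2% of counts) had the introns of a GENCODE gene, and 11061 more (22.2%) shared 50% or more of their exonic bases with one on the same strand. Counts were summed per gene. Unmatched identifiers (6550, 5.57%) entered library sizes. All identifiers of the members met the overlap rule. Genes were filtered with filterByExpr, scaled by TMM and tested with edgeR 4.0.16 in R 4.3.3 (glmQLFit, robust, and glmQLFTest, no covariate). P-values were adjusted over 10564 genes. The SE was derived from F and the log2 fold change, and 95% intervals used the fit's degrees of freedom. Tables and figures were made in Python 3.11.15.

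All 10 members were named. Of each list, at most 3 genes by smallest p were eligible to be named. Klf7, Klf14, Klf17, Ehd3, Pecam1, Tek and Emcn were named in addition, after their values were seen. Flt1 and Kdr were then named to show all 5 tested endothelial markers. On simulated counts of 10393 genes for this comparison, 59% of 2-fold and 95% of 4-fold changes were recovered, with 9 false among 163 calls. Each simulated gene had the same dispersion and no lane effect, so these shares need not hold for genes that vary more, such as Klf4 and Klf10. Chi-square over degrees of freedom was 38.1 to 244 between libraries of a diet, and none was a duplicate. Depth was 40101899 to 46861531 reads, and both depth and countable bases limit a gene's precision. Alternatives were median-ratio and total-count scaling, 2 filters, DESeq2 1.42.0, limma-voom (limma 3.58.1), a replicate block, a lane term and leaving out each library. A restriction to genes with 50% or more of their bases countable and the omission of both libraries with over 25% mitochondrial reads (leaving 1 high-NaCl library) were added after the data were seen.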

Additional observations from a re-analysis of the deposited data

How the results depend on the processing

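The count of members called higher was 0 under each alternative run. The count called lower was 0 as reported and 0 without each library in turn, but 1 with no filter (Klf2), 2 by DESeq2 and 2 with the replicate block (Klf2 and Klf11 in both). Over all genes, against 182 higher and 184 lower, the counts were 81 and 55 with total-count scaling, 409 and 448 by DESeq2, 465 and 447 with the replicate block, 1 and 2 with a lane term, and 31 and 92 without the 2 libraries over 25% mitochondrial. Both of those are high-NaCl, so that fit has 1 high-NaCl library, assumed to vary like the low-NaCl ones, and the lane term rests on 1 library per diet. No filter gave 280 lower. Leaving out each library gave 34 to 292 higher and 36 to 254 lower. Same-numbered libraries deviated together for numbers 1 and 2 (r = 0.302 and 0.374) but not 3 (-0.0603), and low-NaCl library 3 correlated best with high-NaCl library 2. These values do not settle whether the numbers mark pairs, and the main fit did not use them as pairs. With the replicate block the log2 fold change of Klf2 was -1.22 (adjusted p = 0.0240) and that of Klf11 -0.69 (adjusted p = 0.0193).

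Total-count scaling moved the median of all genes to 0.09. Klf2, Klf10, Klf11 and Klf16 lay below 0 under each alternative, and Klf11 was -1.15 against high-NaCl library 2 alone, its highest library. Klf10 was close to 0 in places, at -0.0011 without high-NaCl library 2 and -0.07 without low-NaCl library 1. No member that changed sign passed a test in any setting, and the cause of these changes was not tested. Klf6 was 0.26 and Klf15 0.67 with a lane term. Klf5 was 0.060 with total-count scaling, 0.012 by limma-voom and 0.63 without the 2 libraries over 25% mitochondrial. Without each library, Klf4 ran from -0.26 to 0.94, Klf5 from -0.33 to 0.14, Klf13 from -0.047 to 0.20 and Klf15 from -0.48 to 0.085. Klf3 could be fitted with no filter alone (-1.47, adjusted p = 0.643). Klf3, Klf5, Klf13 and Klf15, with 20 to 359 reads over 6 libraries, are limited by their countable bases.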
